A study of Mus musculus with 12 samples.

Results

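A group of 10 mature microRNAs (miRNAs) made from a short stretch of mouse chromosome 12 was followed in ageing muscle: mmu-miR-127-3p and mmu-miR-127-5p, mmu-miR-136-3p and mmu-miR-136-5p, mmu-miR-434-3p and mmu-miR-434-5p, mmu-miR-337-3p and mmu-miR-337-5p, mmu-miR-431-5p, and mmu-miR-540-5p. The prefix mmu, for mouse, is left out below. They come from 6 hairpins between the genes Gtl2 (also called Meg3) and Rian, in or near the gene Rtl1. They were chosen by name and position as 10 of the 1900 mature miRNAs in the table, with earlier results of these data known. The arms miR-431-3p and miR-540-3p of the same hairpins were not among them. The study had already listed most of the 10 as lower in aged muscle, from these same libraries. Shares of the members set against all miRNAs below are therefore a description, not an independent test. The study also measured some of the members by quantitative PCR of gastrocnemius muscle. It reported that the lower miRNAs measured in this way went in the same direction as in the sequencing. Among the members so measured were miR-434-5p and miR-337-3p, which did not pass the limma test below. Those PCR values were not re-examined here. Small RNA of gastrocnemius muscle, the large calf muscle, had been sequenced in male C57BL/6 mice, with 6 libraries of a young group aged 6 months and 6 libraries of an aged group aged 24 months. No gene was altered and no treatment was given in either group, as far as the labels and the study's methods state. The study's methods name 6 young and 6 aged mice, so a library is taken here as 1 animal, although the labels carry no animal number. Each library was made from the whole muscle, which holds fibres, vessels, blood, nerve and satellite cells, so a lower level of a miRNA in fewer cells and a lower level per cell cannot be told apart.

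The stretch belongs to the imprinted Dlk1-Dio3 region, in which some genes are read only from the chromosome inherited from the mother and others only from the chromosome inherited from the father. The miRNAs and the long non-coding RNAs Gtl2 and Rian are read from the maternal chromosome, whereas Rtl1, a protein-coding gene derived from a retrotransposon, is read from the paternal chromosome and from the opposite DNA strand. Because several of these hairpins lie inside Rtl1 on the other strand, their miRNAs pair perfectly with the Rtl1 mRNA and are known to direct its cleavage. In skeletal muscle the region is known from the callipyge sheep, whose overgrown hindquarters go with raised levels of Rtl1 and Dlk1. A hairpin can give a 5p miRNA from its 5' side and a 3p miRNA from its 3' side, and a miRNA finds its targets mainly through its seed, bases 2 to 8.

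The mature sequences are shown to let the arms and seeds be compared, since the arms of a hairpin did not all change alike. They were taken from RefSeq (GRCm38.p6), where all 10 matched by name, and the capitals mark the seed.
miR-127-3p: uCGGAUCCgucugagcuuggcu
miR-127-5p: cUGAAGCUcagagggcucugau
miR-136-3p: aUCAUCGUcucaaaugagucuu
miR-136-5p: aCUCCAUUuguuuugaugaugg
miR-434-3p: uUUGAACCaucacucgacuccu
miR-434-5p: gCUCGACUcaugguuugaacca
miR-337-3p: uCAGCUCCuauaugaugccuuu
miR-337-5p: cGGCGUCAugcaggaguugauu
miR-431-5p: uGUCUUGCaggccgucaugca
miR-540-5p: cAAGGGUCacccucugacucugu

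No seed among them was shared with another member or with any of the other RefSeq mature mouse miRNAs (1679 entries in all), so each of the 10 stood alone in its seed family. The arms of miR-434 shared a run of 9 bases, UUUGAACCA, which starts at base 1 of miR-434-3p and at base 14 of miR-434-5p and occurs 3 times in the hairpin. Among 677 hairpins with both arms in RefSeq, 9 hairpins (1.33%) had arms that shared a run of 9 bases or more, and the median run was 4 bases. A run of the same length, CGUCAUGCA, was shared by miR-337-5p and miR-431-5p, outside the seed of the latter. The read steps of both miR-337 arms in the table matched a length of 21 bases where RefSeq gives 22, so the entries the authors used may end 1 base away from those printed.

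The 6 hairpins lie on the plus strand of chromosome 12 (mm10, GENCODE M21) within 9600 bases. Gtl2 ends at 109571726, Rian starts at 109603940, and Rtl1 lies on the minus strand between them, at 109589193 to 109600330. Mir337 (109585789 to 109585885) and Mir540 (109586080 to 109586146) lie 194 bases apart on the Gtl2 side of Rtl1, and the only other gene annotated over either is the opposite-strand hairpin Mir3544 over Mir337. Mir431 (109590447 to 109590537), Mir127 (109592846 to 109592915), Mir434 (109594506 to 109594599) and Mir136 (109595327 to 109595388) lie within the coding exon of Rtl1, antisense to it. Each of the 7 members from these 4 hairpins had a full complement in the coding sequence of the Rtl1 transcript Rtl1-201, and the 3 members from Mir337 and Mir540 had none there. The sites of the most abundant members show this pairing, with the letters that face the seed in capitals and positions counted from the first base of the transcript (6358 bases, GENCODE M21).
Rtl1 site of miR-127-3p, positions 2642 to 2663: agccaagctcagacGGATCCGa
Rtl1 site of miR-434-3p, positions 965 to 986: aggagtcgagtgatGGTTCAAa

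The libraries differed widely in depth. Estimated mapped reads lay between 212454 and 6535664 for young and between 120490 and 7770187 for aged libraries. These ranges look alike, but most young libraries were shallower than most aged ones. Apart from young replicate 6, no young library had more than 609917 mapped reads. Apart from aged replicate 5, no aged library had fewer than 1230046. Levels were given as FPKM, in which reads are divided by the length of the miRNA and by the depth of the library, so 1 read of a 22-base miRNA was worth 5.85 FPKM in the deepest and 377 FPKM in the shallowest library. Young replicate 6 and aged replicate 3 were the deepest of their groups and aged replicate 5 the shallowest of all. Without young replicate 6, such a read was worth 74.5 to 214 FPKM in young libraries. Without aged replicate 5, it was worth 5.85 to 37.0 FPKM in aged libraries. Levels of rarely read miRNAs therefore rest on unequal steps at the 6 and 24 months of age. A value of 0 means that no read was seen. All 10 members had a read in at least 5 libraries and were among the 482 miRNAs tested by that filter. In aged replicate 5 no more than 5 of the 10 had a read, against 8 to 10 in the other 11 libraries.

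In these muscles all 10 members had a lower mean level in aged than in young libraries, and 6 of them fell by limma with Benjamini-Hochberg adjustment over the 482 miRNAs tested. These 6 were miR-127-3p, miR-434-3p, both arms of miR-136, miR-337-5p and miR-540-5p. By the same rule 2.28% of all tested miRNAs were called lower. At an unadjusted p under 0.05, 7 members were lower, where 7.26% of all tested miRNAs were. Every aged library was below every young library for 5 members, miR-127-3p, miR-434-3p, both arms of miR-136 and miR-337-3p, as for 2.28% of all tested miRNAs. Of these 5, miR-337-3p was rarely read. The shares of all tested miRNAs include the members and the rows miR-3071 and miR-3544, described below, which hold the same reads as miR-136 and miR-337. Of the 11 miRNAs called lower, 6 were members and 3 were such rows. Of the 11 miRNAs without overlap, 5 were members and 3 were such rows. The median log2 change of the members was -1.55, against 0.07 for all tested miRNAs, of which 44.6% had a change under 0. Changes are on the scale of log2(FPKM + 48.2), and those of rare miRNAs depend on the value added, in either direction. With 1 FPKM added instead, the change of miR-337-5p went from -2.21 to -5.17 and that of miR-127-5p from -0.66 to -0.27.

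**Figure D1:**
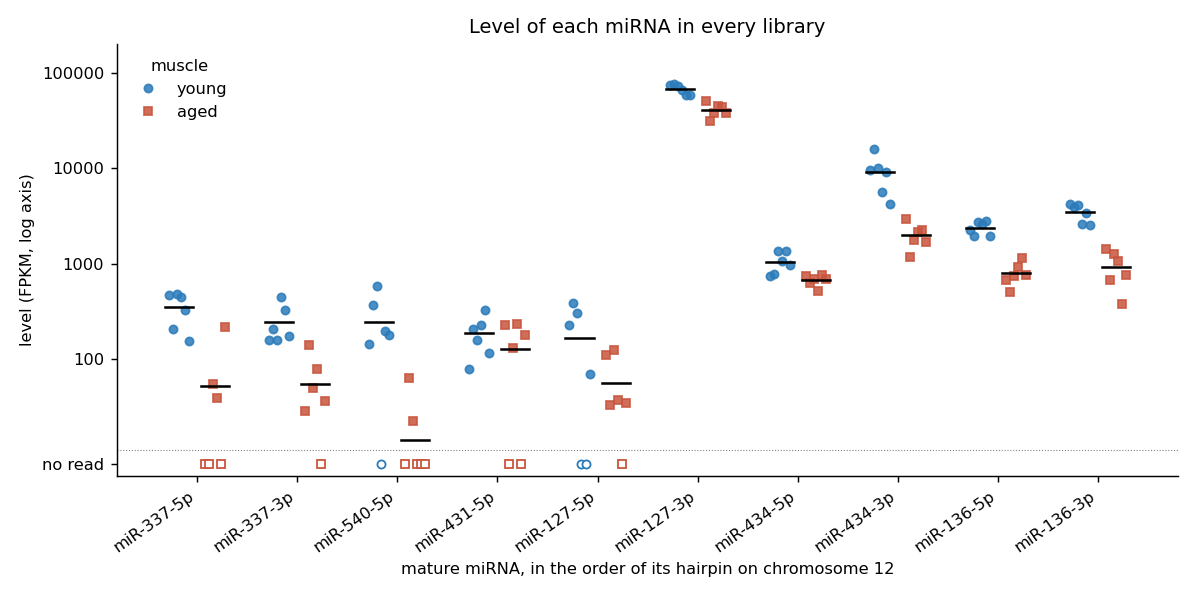
Level of each of the 10 miRNAs in the 6 young (circles) and 6 aged (squares) libraries, in FPKM on a log axis, with the group mean as a bar. Open symbols under the dotted line are libraries without a read, and the bars are means that include them. The aged libraries lay wholly below the young ones for miR-127-3p, miR-434-3p, both miR-136 arms and, on few reads, miR-337-3p.

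The level of the stretch was carried by 1 miRNA. MiR-127-3p, whose known targets include the transcriptional repressor Bcl6, ranged from 57849 through a median of 69837 to 75281 FPKM in young libraries. In aged libraries it ranged from 31000 through 40852 to 50360 FPKM, so the groups did not overlap. Its mean fell from 67771 ± 7886 to 40911 ± 6745 FPKM (SD, n = 6 each), which left 60.4% of the young mean. The log2 change was -0.74 (SE 0.12, 95% interval -0.99 to -0.48, limma adjusted p = 2.56e-04). By mean level it ranked 33 among all miRNAs in young and 43 in aged muscle. Behind these values were 11455 reads in young and 11732 in aged libraries, the most of any member.

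MiR-434-3p, the second of the members in level, had the largest relative fall among those read in every library. Its young libraries held from 4240 through a median of 9412 to 15717 FPKM. Its aged libraries held from 1160 through 1959 to 2937 FPKM, all below the lowest young value. The mean was 9071 ± 4030 FPKM in young and 1994 ± 605 FPKM in aged muscle (SD, n = 6 each), a 4.55-fold lower mean. The log2 change was -2.09 (SE 0.26, 95% interval -2.62 to -1.56, limma adjusted p = 9.85e-06), and its rank by mean level moved from 78 to 133. The young libraries were the more spread, with young replicate 2 highest and young replicate 6, the deepest, lowest, and the coefficient of variation was 44.4% against 30.3% in aged libraries. Young replicate 6 was also the lowest young library for miR-127-3p, both arms of miR-136 and miR-337-5p. The deepest libraries alone showed a smaller fall of miR-434-3p, from 4240 FPKM in young replicate 6 to 1783 FPKM in aged replicate 3. Without these 2 libraries its log2 change was -2.26.

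The other arm of the same hairpin changed less. MiR-434-5p ranged from 744 through a median of 1022 to 1370 FPKM in young libraries and from 516 through 690 to 755 FPKM in aged libraries. The values of 5 of the 6 aged libraries were below the lowest young one, and aged replicate 5, with 2 reads of it, was just above. Its mean was 1048 ± 270 FPKM in young and 669 ± 86.7 FPKM in aged muscle (SD, n = 6 each), 63.8% of the young mean. The log2 change of -0.58 (SE 0.29, 95% interval -1.18 to 0.01) did not pass the test (limma adjusted p = 0.398, unadjusted 0.0527).

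Both arms of miR-136, the hairpin nearest to Rian among the 6, fell. MiR-136-3p held from 2557 through a median of 3661 to 4240 FPKM in young libraries. In aged libraries it held from 377 through 911 to 1418 FPKM, where the lowest value is a single read in aged replicate 5. Its log2 change was -1.94 (SE 0.27, limma adjusted p = 4.11e-05), and 26.7% of the young mean remained. MiR-136-5p held from 1938 through 2408 to 2798 FPKM in young libraries and from 498 through 747 to 1136 FPKM in aged libraries. Its log2 change was -1.56 (SE 0.24, limma adjusted p = 1.22e-04), and 33.2% of the young mean remained. For neither arm did the groups overlap. In the deepest libraries, young replicate 6 and aged replicate 3, miR-136-3p stood at 2557 and 1269 FPKM and miR-136-5p at 1938 and 739 FPKM. The table also lists miR-3071, a hairpin annotated over Mir136 on the minus strand, whose 5p and 3p rows held exactly the values of miR-136-3p and miR-136-5p in all 12 libraries. The annotated miRNAs overlap by 19 and 20 bases, so these are 1 set of reads entered under 2 names, and which strand they came from cannot be told apart in this table.

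MiR-337 and miR-540, on the Gtl2 side of Rtl1, were read rarely. MiR-337-5p held from 153 through a median of 388 to 481 FPKM in young libraries. In aged libraries it held from 0 through 19.4 to 215 FPKM, with no read in aged replicates 1, 2 and 5. All young libraries together had 37 reads of it and all aged libraries 16, and the value of aged replicate 6, from 6 reads, lay within the young range. Its log2 change was -2.21 (SE 0.53, limma adjusted p = 0.0248), a call lost when any of young replicates 1 and 3 and aged replicates 1 to 4 was left out (adjusted p from 0.0507 to 0.0829). MiR-337-3p, the other arm, held from 156 through 190 to 449 FPKM in young libraries and from 0 through 42.6 to 139 FPKM in aged libraries. Its groups did not overlap, at 34 and 16 reads, but the log2 change of -1.55 (SE 0.49, 95% interval -2.56 to -0.53) had a limma adjusted p of 0.0996. That separation rests on few reads, with 1 to 3 in each of young replicates 1 to 5. The 1 read of young replicate 3 was worth 160 FPKM and the 4 reads of aged replicate 2 were worth 139 FPKM. The rows of the opposite-strand miR-3544 differed from those of miR-337 by a constant in every library where both were above 0, by 0.14 on the log2 scale for 1 pair of arms and by 0.07 for the other. They too hold the same reads.

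MiR-540-5p, from the neighbouring hairpin, held from 0 through a median of 189 to 580 FPKM in young libraries, where 5 of 6 had a read. In aged libraries it had reads in replicates 2 and 3 only and reached 63.6 FPKM. It had 39 reads in all young libraries together and 6 in the aged ones. Its log2 change of -1.94 (SE 0.54, limma adjusted p = 0.0497) passed the test by little. In 11 of the 12 fits without 1 library the call was lost, with adjusted p from 0.0652 to 0.131, and it held without young replicate 4 (adjusted p = 0.00429). The deepest libraries, which have the smallest counting error, gave 4.13 RPM (reads scaled to a library of 1000000 mapped reads) in young replicate 6 (95% exact Poisson interval 2.72 to 6.01) and 0.515 in aged replicate 3 (0.140 to 1.32). These intervals cover counting error only and compare 2 libraries, not the ages.

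The last 2 members, miR-431-5p and miR-127-5p, did not pass the test. MiR-431-5p, known to promote myogenic differentiation by targeting Pax7, held from 78.2 through a median of 182 to 326 FPKM in young libraries. In aged libraries it held from 0 through 154 to 232 FPKM, within or below the young range. Its log2 change was -0.66 (SE 0.56, 95% interval -1.82 to 0.51, limma adjusted p = 0.679), and it was -0.35 without aged replicate 2 or aged replicate 5. Summed over all reads of a group, it stood at 2.80 RPM in young and 2.97 RPM in aged muscle, so the sign of the difference turned with the weighting of the libraries. MiR-127-5p, the rarer arm of its hairpin, held from 0 through 147 to 391 FPKM in young libraries and from 0 through 35.7 to 123 FPKM in aged libraries (log2 change -0.66, SE 0.58, 95% interval -1.86 to 0.54, limma adjusted p = 0.679). That change was -0.35 without young replicate 2 and -0.99 without young replicate 4 or young replicate 5. In the deepest libraries it stood at 1.53 RPM (95% exact Poisson interval 0.734 to 2.81) in young replicate 6 and at 2.70 (1.67 to 4.13) in aged replicate 3. A change of either miRNA was not detectable at this depth.

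**Figure D2:**
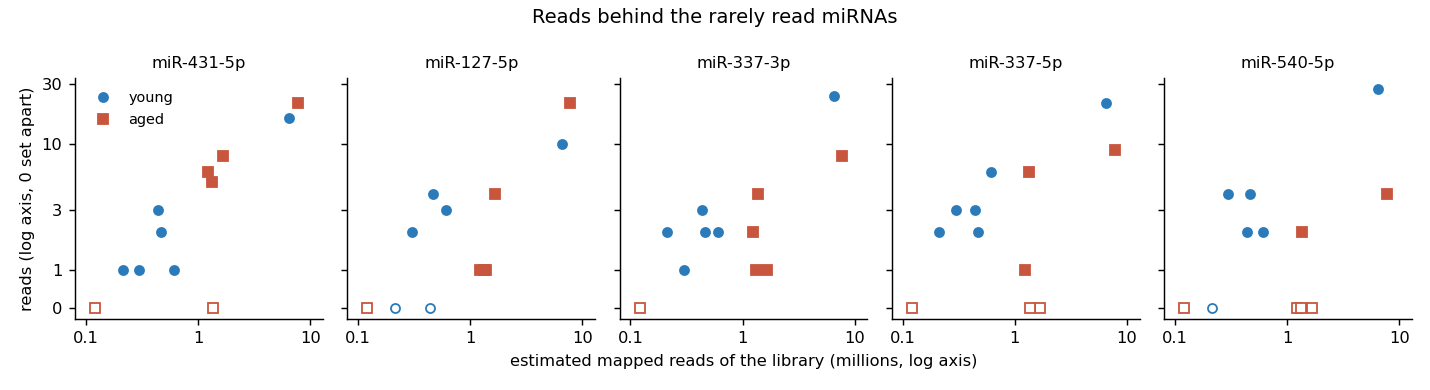
Reads of the 5 rarely read miRNAs in each library (log axis, libraries without a read set apart as open symbols) against the estimated mapped reads of the library (log axis), with circles for young and squares for aged muscle. Outside young replicate 6 and aged replicate 3 no library held more than 8 reads of any of the 5. For miR-337-3p, miR-337-5p and miR-540-5p the deepest young library had 24, 21 and 27 reads and the deepest aged library 8, 9 and 4.

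The order of the abundant members by mean level was the same at both ages. In young and in aged muscle the mean level ran from miR-127-3p through miR-434-3p, the 3p and 5p arms of miR-136 and miR-434-5p to the 5 rare members. MiR-127-3p stood above all values of miR-434-3p at both ages. MiR-434-3p and miR-136-3p had overlapping ranges, although the former was higher in 6 of 6 libraries of each age. The arms of miR-136 overlapped at both ages. MiR-136-5p lay wholly above miR-434-5p in young libraries, whereas in aged libraries their ranges overlapped and miR-136-5p was higher in 4 of 6. Among the rare members, whose ranges all overlapped with that of the next rare member in the order, miR-337-5p came first in young muscle and miR-431-5p in aged muscle. The 10 members summed to 84922 ± 11823 FPKM in young and 45594 ± 7646 FPKM in aged muscle (SD, n = 6 each). The share of miR-127-3p in that sum lay between 76.0% and 84.8% in young libraries and between 88.7% and 90.7% in aged ones, without overlap.

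Whether the members changed by unequal amounts was tested on ratios within a library, with 48.2 FPKM added to both levels. The 5 members read in all 12 libraries gave 10 pairs, compared by two-sided exact permutation of the age labels, with Benjamini-Hochberg adjustment over the 10. Of the 10, 6 differed between the ages. The ratio of miR-127-3p to miR-434-3p rose by 1.35 on the log2 scale (SE 0.24, exact permutation adjusted p = 0.00433), from 3.01 ± 0.56 to 4.36 ± 0.20 (SD, n = 6 each). Its ratios to miR-136-3p and miR-136-5p rose by 1.20 (SE 0.27, exact permutation adjusted p = 0.00433) and by 0.82 (SE 0.18, exact permutation adjusted p = 0.00722). With a pseudocount of 482 FPKM these 2 rises were 0.79 (exact permutation adjusted p = 0.00433) and 0.44 (exact permutation adjusted p = 0.0180). Thus miR-127-3p fell by a smaller proportion than these 3 neighbours.

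MiR-434-5p also stood apart from those 3. Relative to it, miR-434-3p fell by 1.51 on the log2 scale (SE 0.38), miR-136-3p fell by 1.35 (SE 0.37) and miR-136-5p fell by 0.97 (SE 0.19), each with an exact permutation adjusted p of 0.00433 and without overlap of the groups. The ratio of miR-127-3p to miR-434-5p differed by -0.15 (SE 0.22, exact permutation adjusted p = 0.556). Among miR-434-3p and the arms of miR-136 no pair passed, with differences of 0.15 (SE 0.33) between miR-136-3p and miR-434-3p, 0.53 (SE 0.33) between miR-136-5p and miR-434-3p and -0.38 (SE 0.39) between the arms of miR-136. With a pseudocount of 482 FPKM the second of these passed (0.70, exact permutation adjusted p = 0.0247). The smallest p this design allows is 0.00216, which 5 of the 6 pairs reached.

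**Figure D3:**
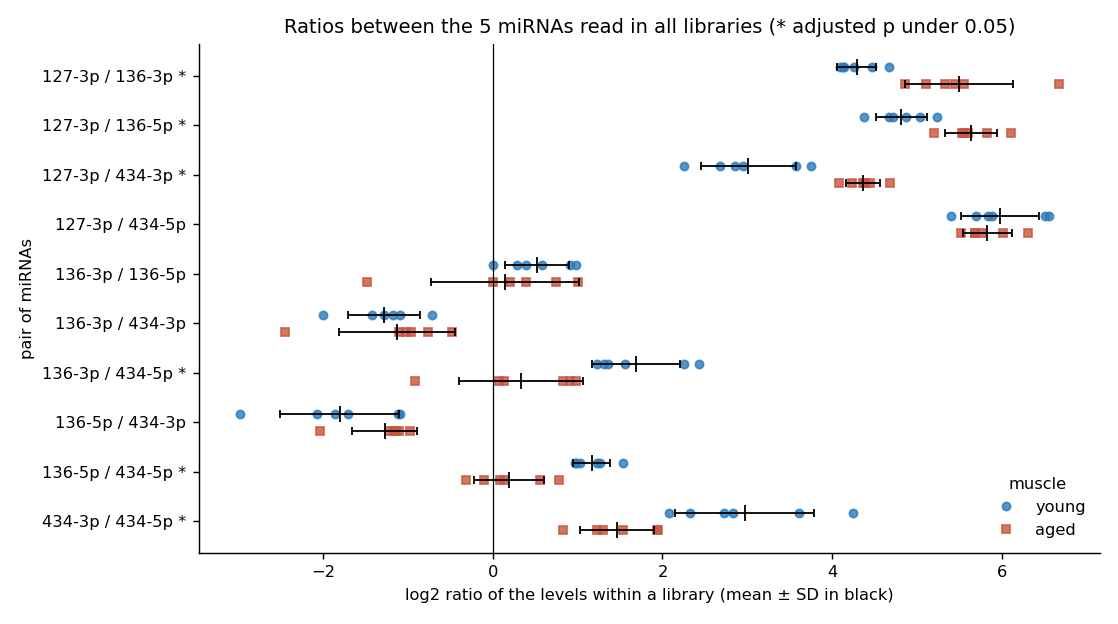
Log2 ratio of the levels of 2 miRNAs within each library, for the 10 pairs of the 5 miRNAs read in all libraries, with circles for young and squares for aged muscle and the mean ± SD in black (n = 6 each). Stars mark the 6 pairs with an exact permutation adjusted p under 0.05, all of which set miR-127-3p or miR-434-5p against miR-434-3p, miR-136-3p or miR-136-5p.

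The arms of a hairpin are cut from the same precursor, and their balance was also tested with limma over the 130 hairpins whose arms were both read in at least 5 libraries. By that test none of the 4 hairpins with both arms among the members passed the adjusted threshold, as 0.769% of the hairpins tested did. For miR-434 the log2 ratio of 5p to 3p went from -2.97 ± 0.82 in young to -1.46 ± 0.43 in aged libraries (SD, n = 6 each), a change of 1.51 (SE 0.37, 95% interval 0.69 to 2.32, limma adjusted p = 0.0756). The highest aged ratio, -0.83 in replicate 2, and the lowest young ratio, -4.25 in replicate 2, bounded the range, and the groups did not overlap. The same ratio passed the permutation test above, which was adjusted over fewer comparisons, so the tests differ for miR-434. For miR-136 the change was 0.38 (SE 0.38, 95% interval -0.45 to 1.21, limma adjusted p = 0.612), and it was 0.06 without aged replicate 5. For miR-337 and miR-127, each with a rarely read arm, the changes were -0.66 (SE 0.53) and 0.08 (SE 0.56), with limma adjusted p of 0.559 and 0.953. The former was -0.32 without aged replicate 2 and -1.04 without aged replicate 6.

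**Figure D4:**
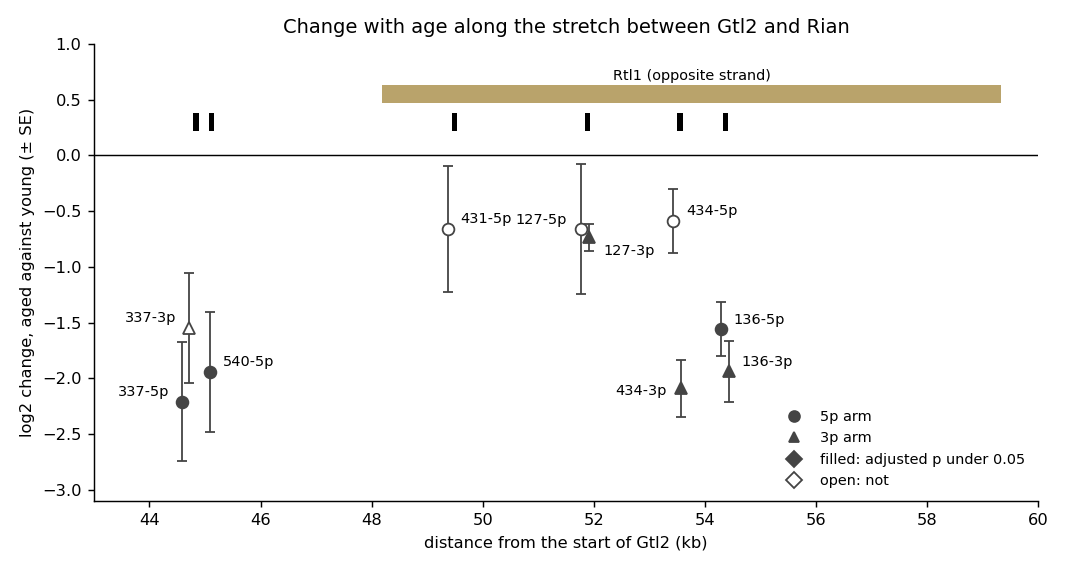
Log2 change of each miRNA in aged against young muscle (± SE from limma) against the distance of its hairpin from the start of Gtl2 in kilobases. Circles are 5p arms and triangles 3p arms, filled where the adjusted p is under 0.05, black boxes mark the 6 hairpins and the brown bar Rtl1, and points are set slightly to the side so that arms can be told apart. All 10 changes lie under 0, and those of miR-434-5p, the miR-127 arms and miR-431-5p are the 4 smallest.

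Position along the stretch did not order the changes. The changes of Mir337 and Mir540 lay from -2.21 to -1.55, those of Mir431 and Mir127 from -0.74 to -0.66, and those of Mir434 and Mir136, on the Rian side, from -2.09 to -0.58. Mir127 lies 1590 bases from Mir434, whose 3p arm had 1 of the largest changes and whose 5p arm had the smallest. Members with a full complement in Rtl1 ranged from -2.09 to -0.58 and those without from -2.21 to -1.55. The Rtl1 mRNA itself was not measured in these libraries.

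Whether the members varied together from library to library was examined within each age. Over the 10 pairs the median Pearson's r of log2 FPKM was 0.0840 in young and 0.266 in aged libraries, with 6 and 8 of the pairs above 0. After median-of-ratios scaling of the libraries the medians were 0.422 in young and 0.123 in aged libraries, with 8 and 7 pairs above 0, so which age had the higher median turned with the scaling. None of the 20 relations passed Benjamini-Hochberg adjustment at 0.05. The closest was that of miR-127-3p with miR-434-3p in aged libraries, with r = 0.991 (exact permutation p = 0.00417, adjusted 0.0833) and Spearman's rho = 0.943 (exact permutation p = 0.0167, adjusted 0.333). Without the 2 libraries farthest from the median of miR-127-3p, r was 0.947. In young libraries the same pair had r = 0.707 (exact permutation p = 0.128, adjusted 0.522), rho = 0.886 (exact permutation p = 0.0333, adjusted 0.333) and r = 0.903 without the 2 farthest libraries. These points share a library and its scaling, and after median-of-ratios scaling the 2 coefficients were 0.972 in aged and 0.667 in young libraries.

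In young libraries 3 other pairs had a higher r. That of miR-136-3p and miR-434-3p was 0.861 (exact permutation p = 0.0361, adjusted 0.361), and it dropped to 0.103 without the 2 libraries farthest from the median of miR-136-3p. That of miR-136-5p and miR-434-5p was 0.804 (exact permutation p = 0.0778, adjusted 0.519) and 0.993 without the 2 farthest libraries. That of miR-127-3p and miR-136-3p was 0.738 (exact permutation p = 0.131, adjusted 0.522) and 0.956 without the 2 farthest libraries. The arms of miR-434 had r = -0.19 in young (exact permutation p = 0.672) and 0.256 in aged libraries (exact permutation p = 0.601), and those of miR-136 had r = 0.128 (exact permutation p = 0.75) and -0.36 (exact permutation p = 0.486). In aged libraries miR-136-3p also went with depth (r = 0.837 with log2 of the mapped reads and rho = 0.714 over 6 libraries, as a description), where the shallowest library held 1 read of it. The other arm, miR-136-5p, went the opposite way with depth, with r = -0.57 and rho = -0.77 in aged and r = -0.67 and rho = -0.71 in young libraries. The part of depth in these values was not tested beyond the alternatives given in the closing section.

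**Figure D5:**
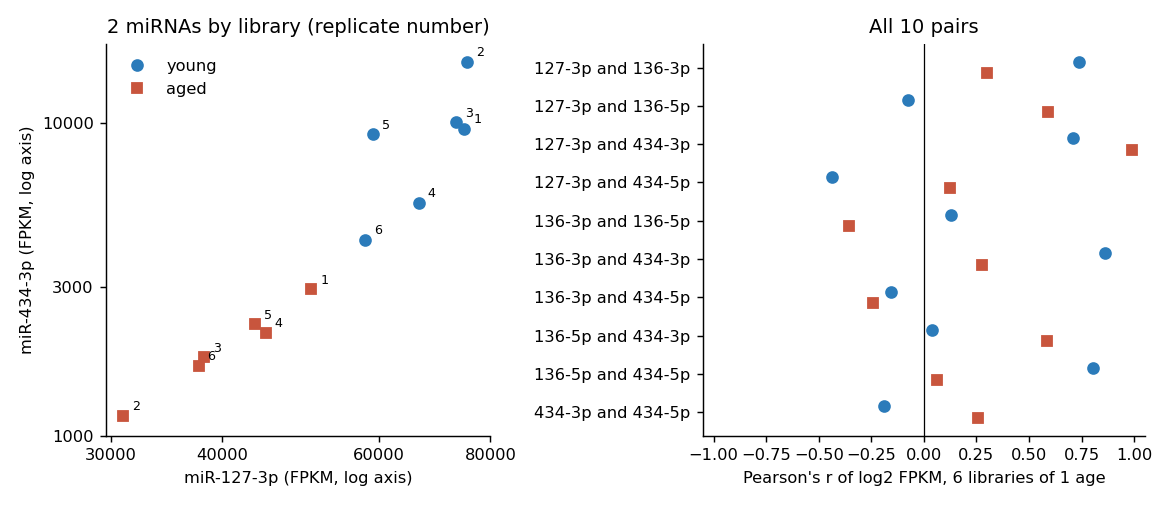
Left, level of miR-434-3p against miR-127-3p in each library (FPKM, both axes log), numbered by replicate. Right, Pearson's r of log2 FPKM over the 6 libraries of 1 age for each of the 10 pairs, with circles for young and squares for aged muscle. The aged libraries lie close to a line on the left (r = 0.991), and the values on the right spread from -0.43 to 0.991.

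The neighbours of the members were read in the same libraries. Of 17 other mature miRNAs listed between Gtl2 and Rian, 9 had a read and 4 were tested, and none of the 4 was called by limma or had an unadjusted p under 0.05. Their log2 changes were -0.13 for miR-433-3p, 0.39 for miR-540-3p, -0.06 for miR-673-3p and 0.05 for miR-673-5p. All 4 were rare, and miR-540-3p, the other arm of Mir540, had 7 reads in young and 9 in aged libraries against 39 and 6 for miR-540-5p. Inside Rian 1 of 7 listed miRNAs was tested, miR-341-3p, with a log2 change of -0.51. Beyond Rian, in the large miR-379 to miR-410 cluster, 31 of 71 listed miRNAs were tested and none was called, although 22 had a change under 0 and 3 an unadjusted p under 0.05. The median change of the 31 was -0.21 and their range -1.60 to 0.62. The 3 with an unadjusted p under 0.05 were miR-411-5p, miR-377-3p and miR-369-3p. Their log2 changes were -0.56, -1.36 and -1.60 (limma adjusted p = 0.0663, 0.196 and 0.0996). Of these 3, miR-411-5p was read in every library, and the study had listed it as lower in aged muscle.

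Markers of the cell types that the muscle could hold were compared, as a whole list for each type. None of the 22 tested markers was called lower in aged muscle. The muscle fibre markers miR-1a-3p, miR-133a-3p and miR-133b-3p were abundant in every library, and the summed 6 fibre markers lay between 4594300 and 7378810 FPKM in young and between 4497090 and 5333860 FPKM in aged libraries. The fibre sum was nearly all miR-133a-3p, with medians of 5248460 FPKM in young and 4771050 FPKM in aged libraries. The marker miR-206-3p rose (log2 change 1.54, limma adjusted p = 0.0296) and was the only marker called in either direction. The rarer fibre markers miR-208b-3p and miR-499-5p had log2 changes of 1.29 and 0.79 (limma adjusted p = 0.552 and 0.613). The 2 endothelial markers, led by miR-126a-5p, summed to 307743 to 455685 FPKM in young and 336491 to 382329 in aged libraries. The 4 white blood cell markers summed to 8449 to 19468 and 11136 to 24904 FPKM, and the 3 red blood cell markers to 5828 to 10486 and 3022 to 10507 FPKM. The log2 changes of these 3 were -0.77 for miR-144-3p, -0.34 for miR-451a and 0.14 for miR-144-5p (limma adjusted p = 0.189, 0.583 and 0.933). The 2 smooth muscle markers, led by miR-143-3p, summed to 3896910 to 5861640 and 4795220 to 6106710 FPKM. The sum was nearly all miR-143-3p, and the other, miR-145a-5p, held 10514 to 17199 FPKM in young and 8306 to 10514 FPKM in aged libraries (log2 change -0.43, limma adjusted p = 0.0975). The 4 nerve markers summed to 0 to 1044 and 0 to 806 FPKM, and the highest of them, miR-9-5p, had medians of 332 and 286 FPKM. The satellite cell markers miR-489-3p and miR-31-5p were near the limit of 1 read (0 to 191 and 0 to 377 FPKM). The nerve marker miR-129-5p was at 0 in most libraries, and miR-489-3p had a median of 55.5 FPKM in young and 0 in aged libraries (log2 change -0.82, limma adjusted p = 0.344). The other satellite cell marker, miR-31-5p, had medians of 31.3 and 94.6 FPKM (log2 change 0.85, limma adjusted p = 0.501). The part of any cell type in the members' changes was not tested.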

How the data were processed

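The authors trimmed adaptors from small RNA reads, mapped them with BWA (default options, mm10) and calculated FPKM per mature miRNA listed in miRBase 20. The submitters' processing notes name mm10 and TopHat2. Whether strand was used and how reads with several places were assigned is not given in the sources used here. The deposited values are log2 FPKM, in which 0 stands for no read. The log was undone, and genomic copies were summed (2035 rows, 1900 miRNAs). One read's worth was taken from the lowest step of each library for 22 bases, and 99.3% of the 2985 values worth fewer than 25 reads were within 0.15 of a whole number, which gave the depth and reads. Depth and reads are therefore estimates. The intervals printed from reads cover counting error only.

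Levels were tested as log2(FPKM + 48.2), the median over libraries of the smallest FPKM above 0, with limma 3.58.1 in R 4.3.3 (lmFit, eBayes with trend, two-sided, Benjamini-Hochberg adjustment at 0.05), aged against young, over the 482 miRNAs above 0 in at least 5 of 12 libraries. Pairs and correlations used two-sided exact permutation (Python 3.11.15, SciPy 1.17.1, NumPy 2.4.6, pandas 2.3.3). The scripts were tested on simulated data. Named were the 10 members, listed neighbours, the opposite-strand copies, listed markers and the 5 miRNAs most alike. The single markers, miR-341-3p and the miRNAs of the miR-379 to miR-410 cluster given with values were picked from their lists after the values were seen. The members and lists were chosen with earlier results of these data known. The p-values measure the spread between these libraries.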

Additional observations from a re-analysis of the deposited data

How the results depend on the processing

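Of the 10 members 6 were called, and 4 to 7 were called under the other pseudocounts, filters, scalings and limma models. Leaving out each library in turn gave 4 to 6. A permutation test for each miRNA called 0, because its smallest adjusted p over 482 miRNAs was 0.0803. MiR-127-3p, miR-434-3p and both arms of miR-136 were called under each of the other 26 alternatives. All 10 members were lower under every alternative that gave them a value. MiR-337-5p lost its call with a pseudocount of 1 FPKM (limma adjusted p = 0.131), without a filter (0.0615) and with zeros kept as values (0.128). MiR-540-5p kept it in 4 of 26 alternatives. MiR-337-3p gained one with quantile normalization (limma adjusted p = 0.0399), without the trend (0.0244) and with voom on the recovered reads (0.0238). With depth as a covariate the limma adjusted p was 0.0459 for miR-337-5p, 0.0686 for miR-540-5p and 0.125 for miR-337-3p. The number of all miRNAs called, 14, was 6 with a pseudocount of 1 FPKM, with zeros kept as values or with constant-difference rows counted once, 7 without a filter, 8 with a filter on the mean or with depth as a covariate, and 6 to 15 without 1 library.

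For the arm balance 0 of the 4 hairpins with both arms among the members were called, and 1, miR-434, was with a pseudocount of 482 FPKM (limma adjusted p = 0.0215). Leaving out each library gave 0 to 1, again miR-434 (without young replicate 4, limma adjusted p = 0.0483; without young replicate 6, 0.0390). The change of the miR-127 ratio, 0.08, ranged from -0.25 to 0.35 without 1 library and turned to -0.25 without young replicate 4, to -0.21 without young replicate 5, -0.01 without aged replicate 1 and -0.11 without aged replicate 3. For the pairs, 6 differed, 6 with a pseudocount of 1 FPKM and 7 with 482 FPKM, which added miR-136-5p against miR-434-3p, and 6 in every fit without 1 library. No co-variation passed by rank or after scaling.

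The replicate numbers did not pair the libraries, since deviations of same-numbered libraries correlated by -0.09 to 0.09 and no library was closest to its own number. With a replicate block 6 members were called by limma and 0 of 10 pairs by exact sign flips, whose smallest adjusted p here is 0.0521. The causes of these shifts were not tested, apart from the limits on the smallest p. The 5 rare members rest on 45 to 64 reads each over all 12 libraries.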

Other observations

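Outside the members, the miRNAs most alike in pattern were those whose deviations from their age's mean went most closely with the mean of the 5 members read in all libraries, over 12 libraries and 211 miRNAs compared. Pearson's r of these deviations was 0.763 for miR-151-3p, 0.693 for miR-378d, 0.668 for miR-872-3p, 0.647 for miR-192-5p and 0.639 for miR-381-3p. These are the highest of 211 values and share each library's scaling, and they are given as a description. Of the 5, miR-381-3p lies in the miR-379 to miR-410 cluster of the same region. In none of the 28 groups of 6 values examined did a library stand far from the rest by Dixon's test, where chance would mark 1.4 of them.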
